A study of Mus musculus with 16 samples.

Results

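The 46 genes described here encode enzymes of glutathione, thioredoxin and peroxide metabolism in mouse white fat. They are the rows of the expression table whose symbols belong to the glutathione transferases (Gst and Mgst genes), glutathione peroxidases (Gpx), peroxiredoxins (Prdx), superoxide dismutases (Sod), thioredoxins (Txn) and thioredoxin reductases (Txnrd). Cat, Gclc, Gclm, Gsr, Gss, Nqo1 and Hmox1 were added by name. A gene also had to reach 1 FPKM (fragments counted per kilobase of transcript and scaled to the mapped total of the library) in at least 2 of the 16 libraries, and all 46 matching rows of the 14023 in the table did. No measured difference entered the choice.

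Epididymal (eWAT) and inguinal (iWAT) fat came from wild-type (WT) mice and from homozygotes for PPARg-K107R, a point mutation that puts arginine at a lysine to which SUMO is joined. PPARg is the nuclear receptor that drives fat cell differentiation, and rosiglitazone is its agonist drug. Every animal had 10 weeks of chow, then 19 weeks of a diet that was 60% fat by calories. Gavage for 1 week gave rosiglitazone at 10 mg/kg or its vehicle, 1% methylcellulose. There were 8 groups (depot by genotype by treatment), each with 2 libraries that bear the replicate numbers 1 and 2. Whether a group's libraries are from different animals is not stated, nor whether an animal gave both depots, and the p-values therefore reflect only how far these libraries spread, which can be technical. In whole tissue, fewer cells of a type and less RNA per cell cannot be told apart.

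Glutathione is a small thiol that is made in consecutive steps by glutamate-cysteine ligase (Gclc with its modifier Gclm) and glutathione synthetase (Gss), and glutathione reductase (Gsr) returns its oxidised form to use with NADPH. Glutathione peroxidases spend it on hydrogen peroxide and lipid peroxides, and glutathione transferases join it to reactive lipids and foreign compounds. Peroxiredoxins do the peroxide work with electrons from thioredoxin, superoxide dismutases turn superoxide into peroxide, and catalase breaks peroxide down in peroxisomes. In fat cells these enzymes deal with peroxides from fatty acid oxidation and with lipid aldehydes such as 4-hydroxynonenal. Many of the genes are textbook targets of the factor Nrf2, which binds the antioxidant response element.

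Some libraries stood apart from the rest. The median FPKM over all genes was 8.95 to 9.61 in the number 1 libraries and 5.36 to 7.92 in 7 of the number 2 libraries. The number 2 library of eWAT K107R rosiglitazone had 8.83. Actb, the beta-actin gene, ranged from 771 to 2016 FPKM across the former and from 21.7 to 261 across the latter 7, with 938 in the eWAT K107R rosiglitazone exception. Both eWAT K107R vehicle libraries held epididymis transcripts: 12 markers of that organ summed to 4920 and 4460 FPKM there, against 0.0301 to 9.29 in the other eWAT libraries and at most 0.215 in iWAT. The fat cell gene Adipoq was abundant in every library, at 1068 to 3320 FPKM. A list of 14 adipocyte genes summed to 11531 and 11603 FPKM in eWAT K107R rosiglitazone, 21611 to 32344 in the other 6 eWAT libraries and 10590 to 16793 in iWAT. These sums follow a listed 0: Fabp4, a fatty acid carrier of fat cells, is listed at 0 in 10 libraries, both of eWAT K107R rosiglitazone and all 8 of iWAT, and at 14168 to 23048 FPKM in the other 6. Lpl, lipoprotein lipase, is listed at 0 in the 4 iWAT rosiglitazone libraries and reaches 2423 FPKM elsewhere. The other 12 genes of the list summed to 5866 to 9928 FPKM in eWAT, highest in K107R rosiglitazone, and 9509 to 16793 in iWAT, a sum made after the values were seen. None of the 46 genes is listed at 0 in any library. The read depth of each library is unknown, since FPKM values carry no counts.

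Changes are differences of log2(FPKM + 1) with their standard error (SE), from limma fitted over all 16 libraries, and p-values are two-sided and adjusted by Benjamini-Hochberg over the 13669 genes tested. An adjusted p below 0.05 counted as passing. The same fit with the replicate number as a term is called the blocked fit, and its p is given where it changes a call of the 46 genes. That term takes the same shift between numbers in every group, which eWAT K107R rosiglitazone shared only weakly. Blocked p-values of comparisons with that group carry this limit. Rescaling the libraries to a common median ratio shifted the median of all genes from 0.17 to 0.00 for rosiglitazone in eWAT K107R, from -0.13 to 0.01 for K107R against WT in eWAT vehicle, and from 0.10 to -0.01 between depots. No call named here changed direction with it.

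The promoters of 39 of the 46 genes were found in the RefSeq table on GRCm38, as 53 windows from 250 bases before to 50 bases after a start site. The antioxidant response element, searched as TGACNNNGC on both strands, was in 8 of the 53 windows (15.1%), those of Gsta3, Gstm5, Gstm7, Gclm, Prdx1, Mgst1, Txnrd1 and Sod1. Of 13402 windows of the genes in the table, 14.4% held it. The direct repeat bound by PPARg with its partner RXR, searched as a pair of AGGTCA spaced by 1 base on both strands with up to 2 mismatches in all, was in 3 windows (5.66%), those of Cat, Gss and Prdx3, against 3.04% of all windows. No window held both. No window was found for Hmox1, Prdx6, Gsta4, Gstt2, Gsr, Gclc and Sod3. Stretches are printed for 3 genes with the antioxidant response element, picked because they were higher in eWAT. Of the others with it, Gsta3 and Gstm7 were also called higher there, Gstm5 lower, and Mgst1 and Sod1 did not pass. A stretch is also printed for catalase, a gene with the direct repeat that stood higher under rosiglitazone in every replicate pair. Capitals mark the motif, or its reverse complement where it lies on the other strand, and each stretch reads in the direction of its gene.
Prdx1: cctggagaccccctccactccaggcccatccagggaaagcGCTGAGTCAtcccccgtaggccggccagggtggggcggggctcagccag
Gclm: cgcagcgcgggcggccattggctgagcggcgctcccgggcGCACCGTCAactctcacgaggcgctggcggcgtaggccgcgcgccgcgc
Txnrd1: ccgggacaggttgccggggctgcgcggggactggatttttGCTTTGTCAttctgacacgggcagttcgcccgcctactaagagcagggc
Cat: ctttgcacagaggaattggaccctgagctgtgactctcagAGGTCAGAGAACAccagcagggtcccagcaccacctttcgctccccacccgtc
The Prdx1 stretch is chr4:116685426-116685514 on the plus strand, the Gclm stretch chr3:122245383-122245471 on the plus strand, and the Txnrd1 stretch chr10:82859074-82859162 on the plus strand. The Cat stretch is chr2:103485305-103485397 on the minus strand. Relative to the start site the motifs lie at -133 in Prdx1, -134 in Gclm, -92 in Txnrd1 and -204 in Cat. Such a match of letters is a description and not a measured binding site.

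Most of these genes were well expressed. None was listed at 0 in any library, 43 of the 46 were at 1 FPKM or more in all 16 libraries, and 30 were at 10 or more in all of them. The highest mean over the libraries was that of Gpx1, the cytosolic glutathione peroxidase, at 909 FPKM, and the lowest that of Gsto2 at 1.09 FPKM. A mean of at least 100 FPKM was reached by 16 genes. Summed, the 46 genes took 1.12% to 1.57% of all FPKM in a library.

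Each family had its own abundant form. Besides Gpx1, the peroxidase of membrane lipids Gpx4 ran from 630.1 to 1100.3 FPKM over the 16 libraries, while Gpx7 and Gpx8, of the endoplasmic reticulum, stayed between 11.9 and 27.8. Among peroxiredoxins, Prdx5 of mitochondria and peroxisomes ran from 338 to 791 FPKM, Prdx2 from 109 to 177, Prdx6 from 59.7 to 109 and the mitochondrial Prdx3 from 18.9 to 89.8. The cytosolic Sod1 ran from 236 to 1111 FPKM, the secreted Sod3 from 110.03 to 415 and the mitochondrial Sod2 from 3.5 to 46.1. The enzymes that make and reduce glutathione were much lower, with Gss at 12.9 to 18.1, Gclc at 7.39 to 13.5, Gclm at 4.94 to 30.6 and Gsr at 5.42 to 31.4 FPKM.

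The thioredoxin of mitochondria, Txn2, ran from 45.4 to 107.2 FPKM and its reductase Txnrd2 from 8.69 to 16. Nqo1 was at 0.82 to 10.9 FPKM. Of the soluble transferases Gstm1 and Gstz1 were the most abundant, Gstz1 at 118 to 372 FPKM. Gstp1, of the pi class, ran from 21.3 to 45.4 FPKM and Gstm4 from 5.92 to 16.1. Gsto2 and Gstp2 stayed under 5 FPKM in every library, with no call for Gsto2 in any comparison.

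**Figure D1:**
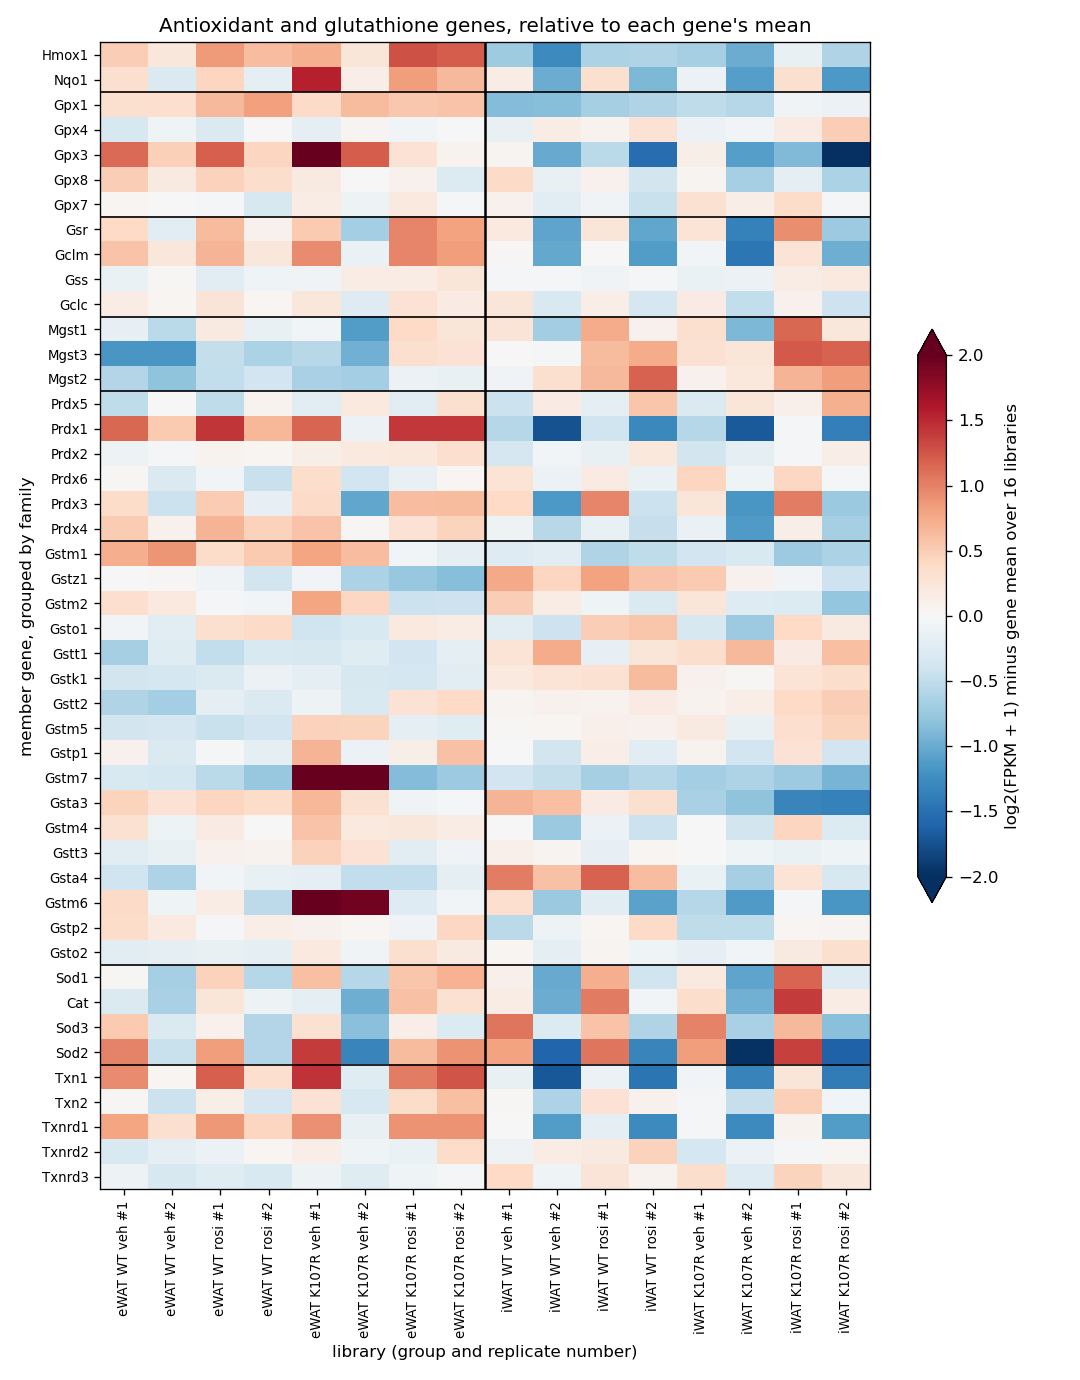
Each row is 1 of the 46 genes, grouped by family, each column 1 of the 16 libraries, and the colour is log2(FPKM + 1) minus the gene's mean over the libraries, with eWAT left of the vertical line. Prdx1, Hmox1 and Gpx1 are higher in eWAT, Mgst3 is highest in rosiglitazone-treated iWAT, Gstm7 and Gstm6 stand out in the 2 eWAT K107R vehicle libraries, and rows such as Sod2 alternate with the replicate number.

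The 2 depots differed in 21 of the 46 genes, 12 higher and 9 lower in eWAT, over the mean of the 4 groups of each depot. Of all genes tested 32.4% passed that comparison, 19.9% higher and 12.5% lower. In the blocked fit 20 of the 46 were higher and 12 lower, where 55.8% of all genes passed. The median change of the 46 was 0.17, beside 0.10 over all genes. The higher genes included Prdx1, Txn1, Txnrd1, Gpx1, Gpx3 and Hmox1, and also the transferases Gstm1, Gsta3, Gstm6 and Gstm7. Of the 9 lower ones 8 were transferases, a class with 17 soluble and 3 microsomal forms among the 46. Of the 5 thioredoxins and their reductases 2 were higher and 1 lower, with a median of 0.07.

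Peroxide-reducing enzymes made up several of the largest differences. Prdx1 (chromosome 4, 116685544 to 116700822, GRCm38) is a cytosolic peroxiredoxin whose promoter window holds the match of letters printed above. Its lowest, median and highest values were 299, 721 and 874 FPKM in the 8 eWAT libraries. In the 8 iWAT libraries they were 95.6, 174 and 314. The ranges overlapped by 1 library on each side, the number 2 library of eWAT K107R vehicle and the number 1 library of iWAT K107R rosiglitazone. The change was 1.91 ± 0.32 (SE, adjusted p 0.000898), a 3.68-fold ratio of means. Gpx1 (chromosome 9, 108338903 to 108340343) ran from 1053 through 1242 to 1486 FPKM in eWAT and from 459 through 558 to 803 in iWAT. All 8 eWAT libraries lay above all 8 of iWAT (1.06 ± 0.06, adjusted p 4.08e-07). Gpx3, the secreted plasma glutathione peroxidase, was at 139, 237 and 591 FPKM (lowest, median, highest) in eWAT and at 30.7, 68.3 and 143 in iWAT, with a change of 1.74 ± 0.30 (adjusted p 0.00116).

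Thioredoxin and its cytosolic reductase followed the same order. Txn1 was at 73.3, 173 and 238 FPKM in eWAT and 26.2, 56.5 and 103 in iWAT (lowest, median, highest), a change of 1.49 ± 0.41 (adjusted p 0.0173). Txnrd1, which recharges it with NADPH, was at 24.3, 49 and 52 FPKM in eWAT and 10.6, 17.7 and 28.5 in iWAT (1.24 ± 0.30, adjusted p 0.00922). Gclm, the modifier subunit of glutamate-cysteine ligase, was higher by 1.08 ± 0.31 (adjusted p 0.0217), although its call was lost without the number 1 library of eWAT WT vehicle, eWAT WT rosiglitazone or eWAT K107R vehicle, or without the number 2 library of either iWAT WT group. The mitochondrial Txn2 (0.07) and Txnrd2 (-0.06) did not pass the test, and the testis-type reductase Txnrd3 was lower (-0.35, adjusted p 0.0382), a call lost in 13 of 16 fits that each left out a library. Prdx4, the peroxiredoxin of the endoplasmic reticulum, was higher by 0.76 ± 0.18 (adjusted p 0.00849).

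Hmox1, the enzyme that opens the haem ring, was at 117, 159 and 243 FPKM (lowest, median, highest) in eWAT and 40.6, 63 and 89.7 in iWAT. No library of one depot entered the range of the other (1.41 ± 0.12, adjusted p 7.82e-06). Nqo1, a quinone reductase, had a change of 0.86 ± 0.34 that passed only in the blocked fit (adjusted p 0.0802, blocked 0.000505). Gsr (0.63, adjusted p 0.244, blocked 0.00887) and Gclc (0.23, adjusted p 0.303, blocked 0.0268) likewise passed only with the block. So did Gpx8 (0.37), Gstm4 (0.37), Gstp2 (0.28), Prdx2 (0.20) and Gstm2 (0.20) on the higher side and Prdx6 (-0.23), Prdx5 (-0.22) and Gpx4 (-0.21) on the lower, with adjusted p of 0.0621 to 0.448 and blocked p of 0.00116 to 0.0491.

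The microsomal transferases Mgst3 and Mgst2 and several soluble transferases were higher in iWAT. Mgst3 (chromosome 1, 167371966 to 167393841), a membrane-bound transferase and lipid peroxidase, was at 148, 220 and 414 FPKM in eWAT and at 326, 466 and 782 in iWAT (lowest, median, highest), lower in eWAT (-1.08 ± 0.07, adjusted p 7.95e-07). The depots overlapped because the 2 eWAT K107R rosiglitazone libraries reached the level of iWAT vehicle. Mgst2, a relative that can make leukotriene C4, was at 9.18, 11.3 and 15.4 FPKM in eWAT and 15.9, 24.1 and 39.2 in iWAT, with no overlap (-0.97 ± 0.10, adjusted p 2.62e-05). The third microsomal form, Mgst1, did not pass, with 308 to 886 FPKM in eWAT and 360 to 1487 in iWAT (-0.30 ± 0.26, adjusted p 0.444). Gstt1, of the theta class, and Gstk1, the mitochondrial and peroxisomal kappa form, also showed no overlap, with changes of -0.71 and -0.54. Gstz1, which acts in tyrosine breakdown (-0.67), Gsta4, which clears 4-hydroxynonenal (-0.65), Gstt2 (-0.36) and Gstm5 (-0.27) were lower in eWAT too. For Gsta4 the WT libraries were at 3.35 to 5.46 FPKM in eWAT and 9.08 to 14.2 in iWAT. Its K107R libraries overlapped between depots, at 3.75 to 4.9 FPKM in eWAT and 3.22 to 7.1 in iWAT. Rescaling ended only the call of Gstm5 among the 21 (adjusted p 0.054).

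Of the other transferases, Gstm1 (chromosome 3, 108012255 to 108017973), the main mu-class form in these samples, was higher in eWAT by 0.91 ± 0.06 (adjusted p 1.06e-06), with 194, 332 and 410 FPKM in eWAT and 135, 163 and 191 in iWAT. The depots did not overlap. Gsta3 was higher by 0.59 ± 0.08 (adjusted p 0.000166), the mean of an iWAT that splits by genotype, as described below. In WT vehicle Gsta3 was lower in eWAT, at 14.3 and 12.8 FPKM against 17.1 and 16.3 in iWAT. In WT rosiglitazone it was at 14.3 and 13.5 in eWAT and 11.7 and 13.1 in iWAT. The K107R libraries were at 9.74 to 17 FPKM in eWAT and 3.45 to 6.19 in iWAT. The eWAT calls of Gstm7 (1.26) and Gstm6 (1.15) rested on the 2 eWAT K107R vehicle libraries: without them the changes were 0.04 (adjusted p 0.71) and 0.51 (adjusted p 0.201). Txnrd3 also lost its call without them (-0.35, adjusted p 0.0715), and 18 of the 46 genes passed. Altogether 6 of the 46 genes had ranges that did not overlap between depots, Gpx1, Gstm1 and Hmox1 higher and Gstk1, Gstt1 and Mgst2 lower, where 10.8% of all genes tested did.

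**Figure D2:**
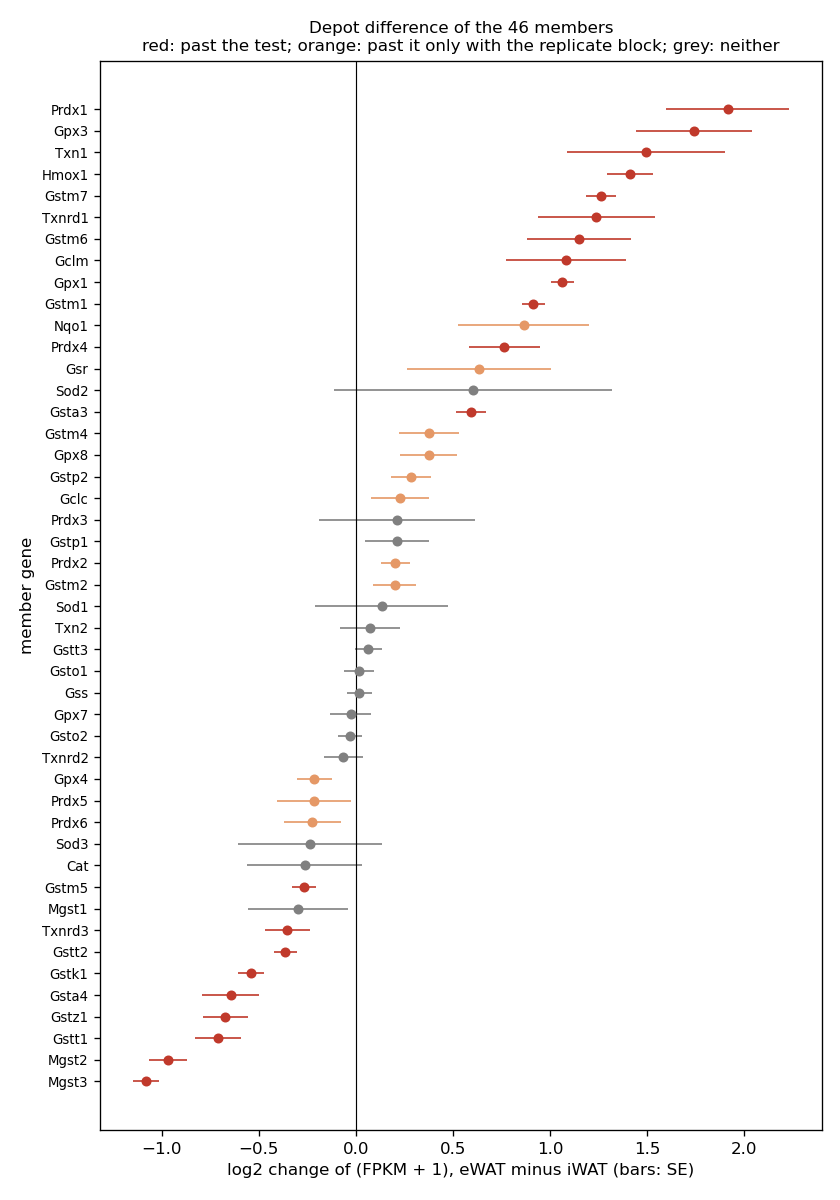
Points are the change of log2(FPKM + 1) between eWAT and iWAT for each of the 46 genes, with bars for the SE, on a linear axis. Red points passed the test, orange ones only with the replicate number as a term, and grey ones neither, and the range runs from Prdx1 at 1.91 to Mgst3 at -1.08.

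Immune markers moved with the depot, where 19.9% of all genes passed as higher in eWAT and 12.5% as lower. Summed over 16 genes, macrophage markers were at 5668 to 7706 FPKM in eWAT and 1612 to 2158 in iWAT, 15 of the 16 passed as higher and 1 as lower, and the part of that difference in the genes above was not tested. The mast cell list had 7 of 9 higher, the neutrophil list 5 of 10 higher and 1 lower, and the mesothelial list 6 of 6 higher in eWAT. In the other direction, the lymphocyte list had 10 of 13 lower in eWAT, the endothelial list 4 of 8, the skeletal muscle list 10 of 12, and the brown and beige fat list 6 of 9 with 1 higher. The adipocyte list had 9 of 14 lower and 2 higher, the latter being Fabp4 and Lpl with their listed zeros in iWAT, fibroblast and progenitor markers 6 of 10 higher and 1 lower, and the erythrocyte list had no call (0 of 6 also in the blocked fit).

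With rosiglitazone, Mgst3 and Gsto1 passed as higher in both depots over the mean of both genotypes. Gstt2 passed as higher in eWAT only, and Mgst2 and Gpx1 in iWAT only. The mu-class transferases Gstm1 and Gstm2 were lower in eWAT. None of the 46 genes passed in eWAT WT alone, and many of these calls were lost on rescaling or on leaving out a library. Over the mean of both genotypes, 7 of the 46 passed in eWAT, 3 higher and 4 lower, where 5.18% of all genes did, 1.59% higher and 3.58% lower. The 4 lower genes were Gstm1, Gstm2, Gstm5 (-0.36) and Gstm7 (-2.70). The eWAT K107R vehicle libraries in this mean hold epididymis transcripts, and the part of that tissue in the calls was not tested. In iWAT 5 passed, 4 higher and 1 lower, where 5.36% of all genes did, 3.11% higher and 2.25% lower. With the block 13 passed in eWAT, 6 higher and 7 lower (11.7% of all genes), and 18 in iWAT, 13 higher and 5 lower (16.2% of all genes). The median change of the 46 was 0.09 in eWAT, beside 0.10 over all genes, and 0.19 in iWAT, beside 0.02.

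Mgst3 rose in both depots. In eWAT its libraries numbered 1 and 2 went from 148 and 148 FPKM with vehicle to 240 and 215 with rosiglitazone in WT, and from 225 and 171 to 414 and 408 in K107R. In iWAT they stood at 332 and 326, then 519 and 559, in WT, and at 413 and 395, then 782 and 756, in K107R. Every rosiglitazone library lay above both vehicle libraries of its own depot and genotype. The change over both genotypes was 0.84 ± 0.09 in eWAT (adjusted p 0.000312) and 0.82 ± 0.09 in iWAT (adjusted p 0.000653), both lost on rescaling (adjusted p 0.0945 and 0.0528).

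By genotype, the Mgst3 change was 1.06 ± 0.13 in eWAT K107R (adjusted p 0.000623) and 0.93 ± 0.13 in iWAT K107R (adjusted p 0.00359). In iWAT WT it was 0.71 ± 0.13 (adjusted p 0.0286), a call lost in each of the 4 fits without a library of that comparison. In eWAT WT it was 0.61 ± 0.13, which passed only with the block (adjusted p 0.114, blocked 0.0211). None of these 3 calls held on rescaling (adjusted p 0.21, 0.147 and 0.457). Whether the genotypes differed in this response was tested as an interaction, and Mgst3 did not pass in either depot.

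The other 2 microsomal transferases stood higher under rosiglitazone as well. Mgst2 in iWAT went from 15.9 and 21.2 FPKM to 27 and 39.2 in WT and from 18 and 19.6 to 27.4 and 30.9 in K107R. The 4 rosiglitazone libraries did not overlap the 4 vehicle libraries, and the change was 0.70 ± 0.14 (adjusted p 0.0149). That call was lost on rescaling (adjusted p 0.275) and without the number 1 library of iWAT WT vehicle or the number 2 library of either iWAT rosiglitazone group. Mgst1, the abundant form of the endoplasmic reticulum and outer mitochondrial membrane, went from 797 and 411 FPKM to 1117 and 711 in iWAT WT and from 839 and 360 to 1487 and 782 in iWAT K107R. Its change of 0.80 ± 0.36 passed only with the block (adjusted p 0.353, blocked 0.0106), and in each of these groups the number 2 library was the lower one. In eWAT it was 0.64 ± 0.36 (adjusted p 0.687, blocked 0.0388).

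Gsto1 (chromosome 19, 47854970 to 47864790), an omega-class transferase that reduces dehydroascorbate and methylated arsenic, rose in iWAT in both genotypes. It went from 80.9 and 70.1 FPKM to 132 and 138 in WT, and from 75.1 and 56.1 to 124 and 106 in K107R. No rosiglitazone library fell into the vehicle range. The change was 0.83 ± 0.15 in WT (adjusted p 0.0258), 0.81 ± 0.15 in K107R (adjusted p 0.0149) and 0.82 ± 0.11 over both (adjusted p 0.0015). The last held in all 8 fits without a library and on rescaling (adjusted p 0.0272), and was lost with iWAT fitted alone (adjusted p 0.0677), while the WT call was lost in all 4 of its fits and the K107R call without the number 2 vehicle or the number 1 rosiglitazone library. Rescaling ended both (adjusted p 0.204 and 0.145).

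In eWAT, Gsto1 went from 90.3 and 80.1 FPKM to 117 and 123 in WT and from 70.8 and 76 to 108 and 105 in K107R, a change of 0.51 ± 0.11 over both (adjusted p 0.0207). Again the treatments did not overlap, yet the call was kept in 1 of 8 fits without a library, that without the number 1 library of WT vehicle, and rescaling ended it (adjusted p 0.426). Gstt2, of the theta class, rose in eWAT by 0.48 ± 0.08 over both genotypes (adjusted p 0.00671), a call lost without the number 2 library of K107R vehicle. Its libraries were at 21.2 and 20, then 28.7 and 26.6 FPKM in WT, and at 30.5 and 26.3, then 40.1 and 43.5 in K107R. The K107R change alone was 0.55 ± 0.12 (adjusted p 0.025), lost in all 4 fits without a library, and rescaling ended both calls (adjusted p 0.733 and 0.92).

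Catalase and haem oxygenase were higher with the drug within replicate numbers, and passed only in the blocked fit. Cat (chromosome 2, 103453849 to 103485160), a known PPARg target gene, went in eWAT from 273 and 213 FPKM to 397 and 314 in WT and from 296 and 171 to 505 and 416 in K107R. In iWAT it went from 371 and 168 to 692 and 324 in WT and from 427 and 172 to 884 and 371 in K107R. Within a replicate number all 4 differences of each depot were positive. The changes were 0.78 ± 0.42 in eWAT (adjusted p 0.614, blocked 0.0258) and 1.00 ± 0.42 in iWAT (adjusted p 0.29, blocked 0.00614).

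Hmox1 showed 0.57 ± 0.17 in eWAT (adjusted p 0.111, blocked 0.00435) and 0.41 ± 0.17 in iWAT (adjusted p 0.276, blocked 0.0196). In iWAT, calls with the block alone were also made for Sod1, the cytosolic superoxide dismutase (0.75, adjusted p 0.64, blocked 0.0398), Txn2 (0.47, adjusted p 0.369, blocked 0.0341) and Prdx5 (0.37, adjusted p 0.721, blocked 0.00301). Gstp2, Prdx2 and Gpx4, the peroxidase of membrane lipids, had smaller changes of 0.54, 0.28 and 0.30 with blocked p of 0.0113, 0.0256 and 0.0131. Gpx1 rose in iWAT by 0.34 ± 0.08 (adjusted p 0.0483), a call that no fit without a library kept. With the libraries of iWAT fitted alone, only Mgst3 (adjusted p 0.0283) of the 5 genes called over both genotypes passed, and none within WT or K107R. With those of eWAT fitted alone, Gstt2 and Gstm5 (adjusted p 0.0608 and 0.0925) of the 7 lost their calls.

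**Figure D3:**
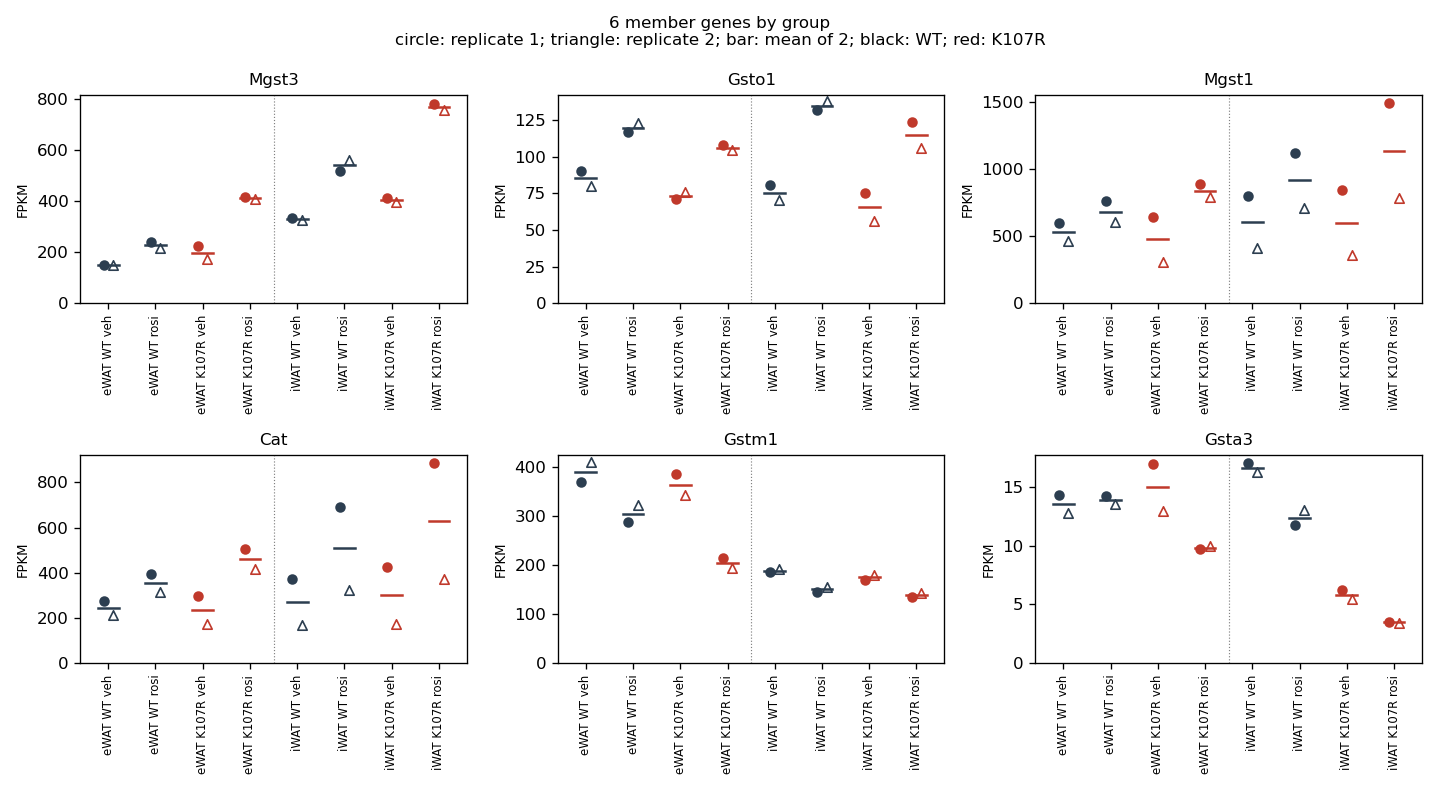
Each panel shows the FPKM of 1 gene on a linear axis from 0, with circles for number 1 libraries, triangles for number 2 libraries and bars for the mean of 2. Mgst3 and Gsto1 rise with rosiglitazone with little spread, Mgst1 and Cat rise within each replicate number while their 2 libraries lie far apart, Gstm1 is lower with the drug, and Gsta3 is low in iWAT K107R.

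Gstm1 and Gstm2, of the mu class, fell with rosiglitazone in eWAT over both genotypes, and no mu-class gene passed in eWAT WT by itself. The 6 members of this class lie in a stretch of chromosome 3 (107895821 to 108044894) and are similar in sequence, so that reads can be shared between them and each value is uncertain. Gstm1 went from 369 and 410 FPKM to 288 and 322 in eWAT WT and from 386 and 342 to 214 and 194 in eWAT K107R. No rosiglitazone library reached the vehicle range, and the change was -0.59 ± 0.08 over both genotypes (adjusted p 0.00148). It was -0.83 ± 0.12 in K107R (adjusted p 0.00146). Leaving out any library kept both calls, while rescaling ended them (adjusted p 0.206 and 0.181). In iWAT the change of -0.33 ± 0.08 missed the threshold (adjusted p 0.0537, blocked 0.0123), with 185 and 191, then 146 and 156 FPKM in WT and 170 and 180, then 135 and 143 in K107R.

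Gstm2 went from 132 and 119 FPKM to 101 and 100 in eWAT WT and from 180 and 140 to 77.1 and 78 in eWAT K107R. The change was -0.67 ± 0.16 over both (adjusted p 0.0335) and -1.02 ± 0.22 in K107R (adjusted p 0.023). No fit without a library kept either call, and both held on rescaling. The K107R vehicle libraries, the highest of eWAT for Gstm2, hold epididymis transcripts. The part of that tissue in the fall of Gstm2 was not tested. In iWAT Gstm2 had -0.51 ± 0.16 (adjusted p 0.11, blocked 0.00613). Gstm5, Gstm6 and Gstm7 fell in eWAT K107R by 0.66, 2.63 and 5.08 on the log2 scale (adjusted p 0.0108, 0.0165 and 5.17e-09), from the vehicle libraries that hold epididymis transcripts. Leaving out a library ended the Gstm5 call in all 4 fits and the Gstm6 call in 3, all but that without the number 2 vehicle library, and rescaling ended that of Gstm5 (adjusted p 0.175). In eWAT WT, where those markers summed to at most 0.343 FPKM, Gstm7 went from 3.3 and 3.16 to 2.63 and 2.14 FPKM and Gstm5 from 21.9 and 22.4 to 20.7 and 21.6, and neither passed. Gstm4 passed in no drug comparison, and in eWAT it was at 13.2 and 9.78, then 11.9 and 10.4 FPKM in WT and at 16.1 and 12.1, then 12.4 and 11.8 in K107R.

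Gpx3 also stood lower with the drug. In iWAT it went from 137 and 65.5 FPKM to 90.3 and 45.1 in WT and from 143 and 60.8 to 71 and 30.7 in K107R, a change of -0.77 ± 0.42 (adjusted p 0.505, blocked 0.00602). In eWAT K107R it went from 591 and 306 to 162 and 139 FPKM (-1.49 ± 0.60, adjusted p 0.345, blocked 0.00105). Those vehicle libraries hold epididymis transcripts, and the part of that tissue in the fall was not tested. In eWAT WT Gpx3 stayed near its start, from 290 and 184 to 304 and 179. Gsta3 fell in iWAT over both genotypes (-0.50 ± 0.11, adjusted p 0.0248). Rescaling ended that call (adjusted p 0.124), as did leaving out a library in 7 of 8 fits, all but that without the number 2 library of K107R vehicle.

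Taken by genotype, no gene of the 46 passed in eWAT WT, 5 had an unadjusted p under 0.05, and 0.446% of all genes passed. With the block Mgst3 alone passed, as higher, where 2.47% of all genes passed and 1.02% were higher. In eWAT K107R 2 were higher and 5 lower (4.89% of all genes, 1.29% higher and 3.61% lower), and with the block 6 were higher and 8 lower (10.9%). In iWAT WT and iWAT K107R the same 2 genes, Mgst3 and Gsto1, were higher. Of all genes 1.68% passed in WT, 0.9% as higher, and 4.21% passed in K107R, 1.92% as higher. With the block these became 3 higher and 1 lower in WT (6.98%) and 8 higher and 4 lower in K107R (12.4%). The comparisons by genotype share no libraries.

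The genes added by the block in eWAT K107R were Cat (1.02), Mgst1 (0.91), Hmox1 (0.77) and Gsto1 (0.53) above. Gpx3, Gsta3 (-0.55) and Gstt3 (-0.53) were added below, with blocked p of 0.00105 to 0.0398 in all. The number 2 library over number 1 was 0.577 (Cat), 0.480 (Mgst1), 0.716 (Hmox1) and 1.07 (Gsto1) in eWAT K107R vehicle. With rosiglitazone it was 0.825, 0.892, 0.960 and 0.968, and its part in these calls was not tested. The vehicle libraries here hold epididymis transcripts, whose part was not tested either. In iWAT K107R the block added Cat (1.08), Mgst1 (0.97), Mgst2 (0.61), Gpx1 (0.45), Prdx5 (0.43) and Gpx4 (0.41) above. Below it added Gpx3 (-0.98), Gsta3 (-0.61), Gstz1 (-0.54) and Gstm2 (-0.52), with blocked p of 0.0101 to 0.038 in all. In iWAT WT Mgst2 (0.79, blocked p 0.0186) was added above and Gstt1 (-0.47, blocked p 0.0343) below. Over both genotypes the block also added Gstz1 (-0.35, blocked p 0.0365) and Gstm6 (-1.49, blocked p 0.00072) in eWAT and Gstt1 (-0.29, blocked p 0.0317) in iWAT.

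Ranges of the 4 rosiglitazone and 4 vehicle libraries did not overlap for 6 genes in eWAT, Cat, Gsto1 and Mgst2 above and Gstm1, Gstm2 and Gstm7 below, where 6.42% of all genes did not. In iWAT Gsto1, Gstp2, Hmox1, Mgst2 and Mgst3 were above and Gstm1 below, where 8.28% of all genes did not overlap. Within replicate numbers, 19 of the 46 moved the same way in all 4 pairs in eWAT, 13 up and 6 down (28.3% of all genes did), and 31 in iWAT, 24 up and 7 down (46.9% of all genes).

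Markers of other cell types moved with the drug too. Over both genotypes 1.59% of all genes passed as higher in eWAT and 3.11% in iWAT. In eWAT K107R 1.29% were higher and 3.61% lower. In iWAT K107R 2.28% were lower, and in iWAT WT 0.9% were higher (4.02% with the block). Brown and beige fat markers summed to 80.7 to 160 FPKM in eWAT vehicle and 141 to 490 in eWAT rosiglitazone, and to 212 to 287 and 456 to 694 in iWAT, with 7 of 9 and 5 of 9 past the test. Mast cell markers were at 124 to 223 FPKM in eWAT vehicle and 183 to 444 in eWAT rosiglitazone, with 5 of 9 higher. Lymphocyte markers in iWAT fell in K107R in 6 of 13 genes, from 155 and 119 to 51.5 and 40.8 FPKM, and muscle markers there fell in 9 of 12. In iWAT WT 1 of the 13 lymphocyte genes rose, and 7 with the block, with sums of 252 and 196, then 373 and 324 FPKM. In eWAT K107R the neutrophil list had 5 of 10 higher and 1 lower, skeletal muscle markers fell in 6 of 12 genes, other epithelium markers in 9 of 10 and epididymis markers in 12 of 12. The adipocyte sum there went from 29048 and 24423 to 11531 and 11603 FPKM with Fabp4, and from 7049 and 7129 to 9636 and 9928 over the 12 genes without a listed 0, of which Cidea and Adipoq passed as higher. In iWAT those 12 genes summed to 9509 to 11908 FPKM with vehicle and 12663 to 16793 with rosiglitazone, with 3 higher and 0 lower over both genotypes. Erythrocyte markers in eWAT WT went from 512 and 665 to 1115 and 1666 FPKM. Of these 2 of 6 passed as higher, where 0.168% of all genes did, and none passed in eWAT K107R. The part of all these markers in the changes of the antioxidant genes was not tested.

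The K107R mutation was compared with WT within each treatment, and few of the 46 genes passed. In eWAT vehicle 3 were higher, Gstm5, Gstm6 and Gstm7, where 3.35% of all genes passed and 2.89% were higher. With the block 6 were higher, where 8.3% of all genes passed and 4.77% were higher. In eWAT rosiglitazone Mgst3 was the only one, where 0.907% of all genes passed and 0.556% were higher, with 2 higher and 2 lower in the blocked fit (3.47%). In iWAT vehicle Gsta3 was lower, where 0.578% of all genes passed and 0.168% were lower. The block added Gsta4, where 2.12% passed and 1.13% were lower. In iWAT rosiglitazone Gpx1 was higher and Gsta3 lower (4.13% of all genes, 0.995% higher and 3.14% lower), and with the block 3 were higher and 3 lower (9.36%).

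Gstm7 (chromosome 3, 107926334 to 107931817) was at 111 and 93.9 FPKM in the 2 eWAT K107R vehicle libraries and between 1.79 and 3.3 in the other 14. The change against WT was 4.61 ± 0.15 (adjusted p 1.1e-08), a 31.7-fold ratio of means, and it held in every fit without a library, on rescaling and in the blocked fit. Gstm6 was at 25.7 and 11.4 FPKM there and between 0.448 and 3.27 elsewhere (2.33 ± 0.53, adjusted p 0.0455, lost in all 4 fits without a library). Gstm5 was at 39.6 and 39 FPKM against 21.9 and 22.4 in WT (0.80 ± 0.13, adjusted p 0.00396), a call lost without either K107R vehicle library and on rescaling (adjusted p 0.146). Gstm7 and Gstm6 stood above the other 14 libraries in both, and Gstm5 above the other 6 of eWAT.

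These are the libraries with epididymis transcripts, and the part of that tissue in the values was not tested. All 12 epididymis markers tested were higher in eWAT K107R vehicle than in WT vehicle, with a median change of 8.26. Of 10 markers of other epithelia 8 were higher, and they summed to 111 and 127 FPKM against 16.8 to 29.6 in the other eWAT libraries. Gpx3 (0.88 ± 0.60, adjusted p 0.932, blocked 0.0306), Gstt3 (0.56, adjusted p 0.0702, blocked 0.0137) and Gstt2 (0.44, adjusted p 0.0996, blocked 0.0277) passed only with the block. Lymphocyte markers were lower in 7 of 13 genes. Of all genes 2.89% passed as higher in eWAT K107R vehicle and 0.461% as lower, without the block.

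**Figure D4:**
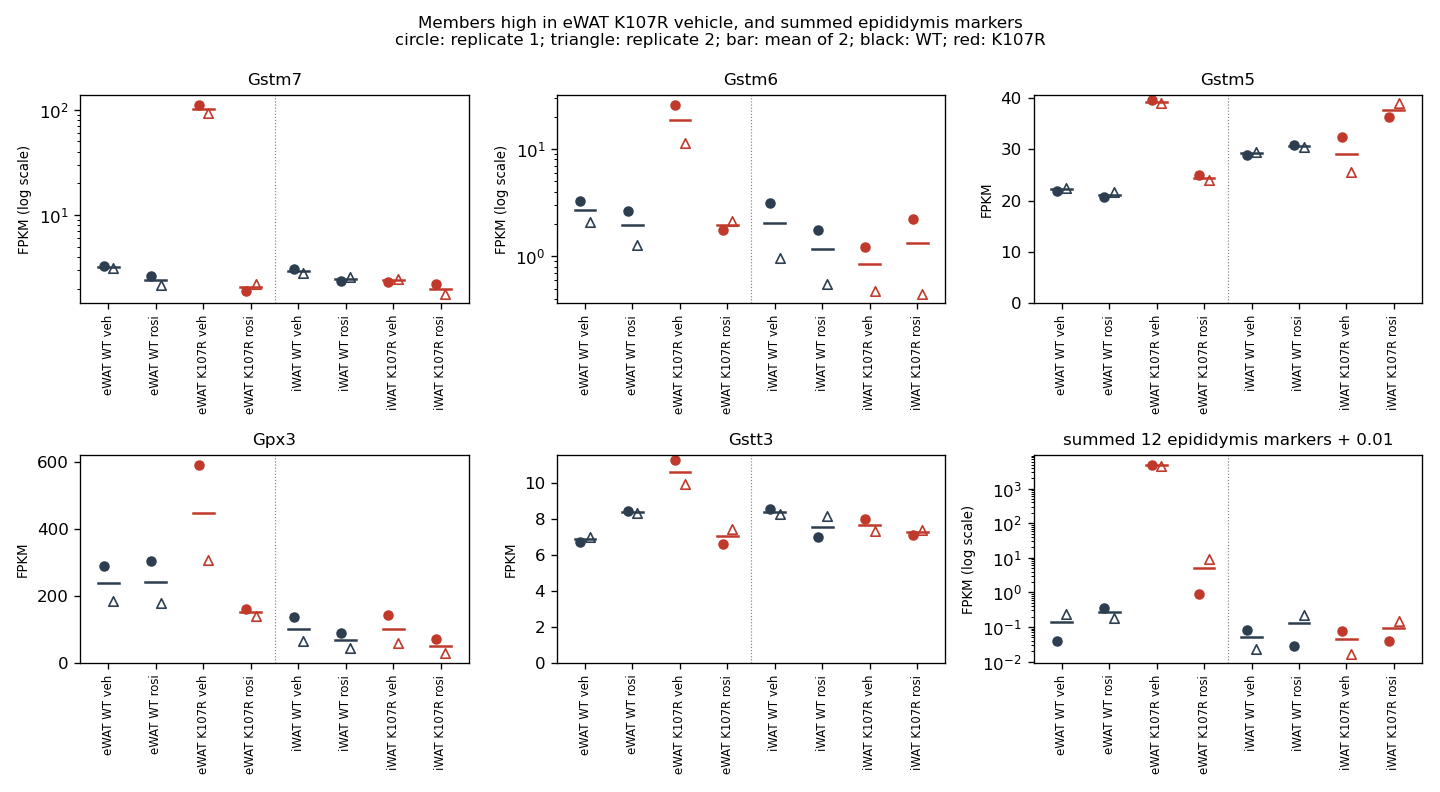
Panels show FPKM by group for 5 genes and for the sum of 12 epididymis markers, with log axes for Gstm7, Gstm6 and the marker sum (0.01 added) and linear axes from 0 for the others. In the 2 eWAT K107R vehicle libraries Gstm7 is at 111 and 93.9, Gstm6 at 25.7 and 11.4, and the markers at 4920 and 4460 FPKM, and Gstm5, Gpx3 and Gstt3 are at their highest eWAT values.

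Under rosiglitazone, where the epididymis markers summed to 0.886 and 9.29 FPKM in K107R and none of them passed (1 with the block, Cuzd1, adjusted p 0.131, blocked 0.0474), Mgst3 was higher in eWAT K107R, at 414 and 408 FPKM against 240 and 215 in WT. The change was 0.86 ± 0.13 (adjusted p 0.0151), a ratio of 1.81, although no fit without a library kept the call, and rescaling (adjusted p 0.438) or fitting eWAT alone (adjusted p 0.185) ended it. In iWAT the same comparison gave 782 and 756 against 519 and 559 FPKM (0.51 ± 0.13, adjusted p 0.0739, blocked 0.0169). In both depots the K107R libraries lay above the WT ones. Under vehicle the changes of 0.40 in eWAT and 0.29 in iWAT did not pass. Brown and beige markers were higher in 6 of 9 genes in this eWAT comparison under rosiglitazone and neutrophil markers in 5 of 10. Mast cell markers were lower there in 4 of 9 and erythrocyte markers in 2 of 6. Of all genes 0.556% were higher and 0.351% lower. The adipocyte list had 1 of 14 higher and 1 lower, the latter Fabp4, and its 12 genes without a listed 0 summed to 9636 and 9928 FPKM in K107R against 7135 and 7623 in WT. The part of these markers was not tested.

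With the block 3 more genes passed in that eWAT comparison under rosiglitazone. Gstm1 was at 214 and 194 FPKM in K107R against 288 and 322 in WT (-0.58 ± 0.12, adjusted p 0.0644, blocked 0.0136). Gstz1 was at 125 and 118 against 202 and 165 (-0.58 ± 0.23, adjusted p 0.627, blocked 0.0426). Gstt2 was at 40.1 and 43.5 against 28.7 and 26.6 (0.58 ± 0.12, adjusted p 0.0644, blocked 0.0144).

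Gsta3 (chromosome 1, 21240589 to 21265661), an alpha-class transferase, was lower in K107R iWAT under both treatments. With vehicle its libraries were at 17.1 and 16.3 FPKM in WT and 6.19 and 5.48 in K107R, and with rosiglitazone at 11.7 and 13.1 in WT and 3.52 and 3.45 in K107R. No K107R library came near a WT one. The changes were -1.37 ± 0.15 (adjusted p 0.00225) and -1.58 ± 0.15 (adjusted p 0.000183), and the WT means were 2.86 and 3.56 times those of K107R. Both calls held in every fit without a library, on rescaling (adjusted p 0.0455 and 0.00476) and with the block. With the iWAT libraries fitted alone the rosiglitazone call held (adjusted p 0.0292) and the vehicle call was lost (adjusted p 0.195). In eWAT, Gsta3 was at 9.74 to 17 FPKM and did not pass by genotype.

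The related Gsta4 was also low in K107R iWAT, at 5.11 and 3.22 FPKM against 12.6 and 9.08 in vehicle WT, and at 7.1 and 4.37 against 14.2 and 9.32 under rosiglitazone. Its changes of -1.21 ± 0.29 and -0.93 ± 0.29 passed only with the block (adjusted p 0.186 and 0.163, blocked 0.0148 and 0.0156). Alpha-class genes are similar in sequence too, so reads can be shared between them. Gstz1 was at 204 and 160 FPKM in K107R rosiglitazone iWAT against 372 and 316 in WT (-0.92 ± 0.23, adjusted p 0.0602, blocked 0.00127). Gpx7 had 0.43 ± 0.21 there (adjusted p 0.564, blocked 0.0265). Gpx1 was at 803 and 778 against 534 and 553 FPKM (0.54 ± 0.12, adjusted p 0.0318), a call that no fit without a library kept and rescaling ended (adjusted p 0.649).

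Cell type markers in iWAT differed between genotypes as well. Of all genes 0.41% passed as higher in K107R with vehicle, and 0.995% with rosiglitazone (2.92% with the block). With rosiglitazone 3.14% were lower. With vehicle, lymphocyte markers summed to 252 and 196 FPKM in WT and 155 and 119 in K107R, and with rosiglitazone to 373 and 324 in WT and 51.5 and 40.8 in K107R, with 10 of 13 lower in the last comparison. Skeletal muscle markers were at 142 and 161 FPKM in K107R vehicle against 29.6 and 33.1 in WT vehicle, with 10 of 12 higher, and 6 of 12 were higher under rosiglitazone. Their part in the values of Gsta3, Gsta4 and Gpx1 was not tested. Macrophage markers had 1 of 16 higher under vehicle and none under rosiglitazone (4 with the block).

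The genotypes differed in their response to the drug for Gstm7 in eWAT, with an interaction of -4.75 ± 0.22 (adjusted p 2.37e-07), which rests on the eWAT K107R vehicle libraries described above. Of all genes tested 2.53% passed this interaction, 2.3% with a negative sign. With the block Gpx3 (-1.51, blocked p 0.017), Gstm6 (-2.29, blocked p 0.00766) and Gstt3 (-0.79, blocked p 0.0212) passed too, all negative. In that fit 4.2% of all genes passed, 3.34% with a negative sign. These interactions use the same eWAT K107R vehicle libraries. In iWAT none of the 46 passed the interaction, none had an unadjusted p under 0.05 and none passed in the blocked fit, where 0.966% of all genes passed without and 2.53% with the block. No peroxiredoxin, thioredoxin, thioredoxin reductase, superoxide dismutase or enzyme of glutathione synthesis passed any comparison of treatment or genotype outside the blocked fit, nor did Cat, Hmox1 or Nqo1.

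Genes that work beside these enzymes were followed in 5 lists. Of 19 genes tested around Nrf2, its partners and its other targets, 12 were higher in eWAT than in iWAT and none lower. Of all genes 19.9% were higher and 12.5% lower. The list's median was 0.57 beside 0.10 over all genes, and 17 were higher with the block, where 34.8% of all genes were. Ftl1, the light chain of the iron store ferritin, ran from 7406 to 10734 FPKM in eWAT and from 2120 to 2919 in iWAT (1.84 ± 0.08, adjusted p 5.63e-08). Srxn1, which repairs overoxidised peroxiredoxins, ran from 41.3 to 61.2 FPKM in eWAT and from 12.1 to 19.2 in iWAT (1.70 ± 0.08, adjusted p 8.97e-08). Akr1b8, an aldehyde reductase, had a change of 2.06 ± 0.09 and Cbr3, a carbonyl reductase, one of 1.55 ± 0.15. None of these 4 overlapped between depots.

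In each rosiglitazone comparison at most 1 of the 19 genes of the Nrf2 list passed. Akr1b8 rose in eWAT K107R from 138 and 128 to 239 and 217 FPKM (0.77 ± 0.17, adjusted p 0.0274). It was 1 of 19 genes there, where 4.89% of all genes passed and 1.29% were higher. Those vehicle libraries hold epididymis transcripts, whose part was not tested. None passed in eWAT WT (0.446% of all genes) or in iWAT (1.68% in WT, 4.21% in K107R, 5.36% over both). With the block 1 was higher and 2 lower over both iWAT genotypes, where 9.3% and 6.87% of all genes were. Maff, a small Maf partner of Nrf2, was higher in iWAT K107R than in WT under rosiglitazone by 1.08 ± 0.21 (adjusted p 0.016). In eWAT the same comparison gave 0.88 ± 0.21 for Maff (adjusted p 0.131, blocked 0.0114) and 0.63 ± 0.17 for Akr1b8 (adjusted p 0.216, blocked 0.00726). Nfe2l2, the gene of Nrf2 itself, named here after its values were seen, ran from 38.2 to 86.6 FPKM in eWAT and from 15.2 to 56.8 in iWAT, with overlap.

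Of 16 oxidant-source genes tested, 7 were higher and 4 lower in eWAT, where 19.9% and 12.5% of all genes were, with a median of 0.44 beside 0.10. Among the higher were Cyba (1.95), Ncf1 (1.81) and Ncf4 (1.63), which encode subunits of the phagocyte NADPH oxidase. Cyba ran from 255 to 345 FPKM in eWAT and from 66.2 to 86.9 in iWAT, beside the macrophage markers given above.

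In glutathione turnover, 6 of 25 genes were higher and 2 lower in eWAT, where 19.9% and 12.5% of all genes were, and the list's median was 0.03 beside 0.10. Hpgds, a sigma-class transferase that makes prostaglandin D2, had a change of 2.75 ± 0.35 (adjusted p 0.000139), with 14.9 to 59.3 FPKM in eWAT and 2.14 to 8.45 in iWAT. Oplah, which returns 5-oxoproline to glutamate for new glutathione, was lower in eWAT (-1.03 ± 0.06, adjusted p 6.24e-07). It rose with rosiglitazone in iWAT WT from 26.3 and 27.9 to 41.2 and 45.4 FPKM, in iWAT K107R from 32.9 and 36.4 to 64.5 and 75, and in eWAT K107R from 21.2 and 20.8 to 40.3 and 40.1. The changes were 0.66, 0.99 and 0.90 (adjusted p 0.0283, 0.00173 and 0.00111). In eWAT WT it was at 11.6 and 13.1, then 13.8 and 13.9 FPKM, and was lower than in K107R under both vehicle (0.72 ± 0.12, adjusted p 0.0067) and rosiglitazone (1.47 ± 0.12, adjusted p 0.000297). The eWAT K107R vehicle libraries hold epididymis transcripts. The part of that tissue in the vehicle difference and in the eWAT K107R change was not tested.

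Ggt1, which splits extracellular glutathione, was at 4.6 and 4.95 FPKM in the 2 eWAT K107R vehicle libraries with epididymis transcripts, and at 0.441 FPKM or less in the other 14, with 1 listed at 0. Chac1, which degrades glutathione in the cell, was higher in iWAT K107R than in WT under rosiglitazone by 1.05 ± 0.16 (adjusted p 0.00295). Msra, which repairs oxidised methionine, rose with rosiglitazone in iWAT by 0.73 ± 0.16 (adjusted p 0.0251), from 36.2 and 26.3 to 53.9 and 44.2 FPKM in WT and from 41.4 and 27.6 to 67.5 and 54.4 in K107R.

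NADPH pays for glutathione and thioredoxin reduction. Of 14 genes of its supply 4 were higher and 4 lower in eWAT, where 19.9% and 12.5% of all genes were. Among them were Pgd (0.50) and Nnt (0.69) above and Idh2 (-0.53) and Aldh1l1 (-0.63) below. With rosiglitazone 2 of the 14 rose in iWAT over both genotypes, where 3.11% of all genes did. Taldo1, of the pentose phosphate path, went from 351 and 332 to 522 and 555 FPKM in WT and from 317 and 275 to 483 and 453 in K107R (0.66 ± 0.09, adjusted p 0.00153). Me1, malic enzyme, had 1.03 ± 0.21 (adjusted p 0.0204). Aldh1l1 fell in eWAT K107R from 32.5 and 36.5 to 15.4 and 16.7 FPKM (-1.06 ± 0.21, adjusted p 0.0138). Those vehicle libraries hold epididymis transcripts, and the part of that tissue in the fall was not tested. None of the 14 passed in eWAT WT, where 0.446% of all genes did (1 lower with the block, where 2.47% passed). Of 14 genes of selenium supply and selenoproteins tested, 3 were higher in eWAT (Selm, Scly and Sepn1) and Sepw1 lower, beside the same 19.9% and 12.5%. None of them passed for treatment or genotype in any comparison, with or without the block.

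A further pattern ran with the replicate number. In 12 of the 46 genes (26.1%) the number 2 library was at less than 0.5 of its number 1 partner by the median over the 7 groups other than eWAT K107R rosiglitazone, as for 23.6% of all genes. Sod2, the superoxide dismutase of mitochondria, was the most extreme, with 34.5 and 12, 30.8 and 10.9, 46.1 and 6.1, 30.1 and 4.92, 36.5 and 6.16, 30.9 and 3.5, and 44.9 and 4.8 FPKM in the 7 groups. Its ratio was 0.107 to 0.354 there and 1.21 in eWAT K107R rosiglitazone, at 26.4 and 32 FPKM. Nqo1 (0.313), Prdx3 (0.366), Txn1 (0.386), Gsr (0.391), Gclm (0.450), Txnrd1 (0.456), Sod1 (0.459), Prdx1 (0.463) and Cat (0.468) had low median ratios too. Prdx5 went the other way, 1.34 to 1.68 in the 7 groups with a median of 1.5, and Gpx1 (1.01) and Mgst3 (0.967) had median ratios near 1. The same libraries are low in Actb, as given above, and what the numbers mark is not in the labels.

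**Figure D5:**
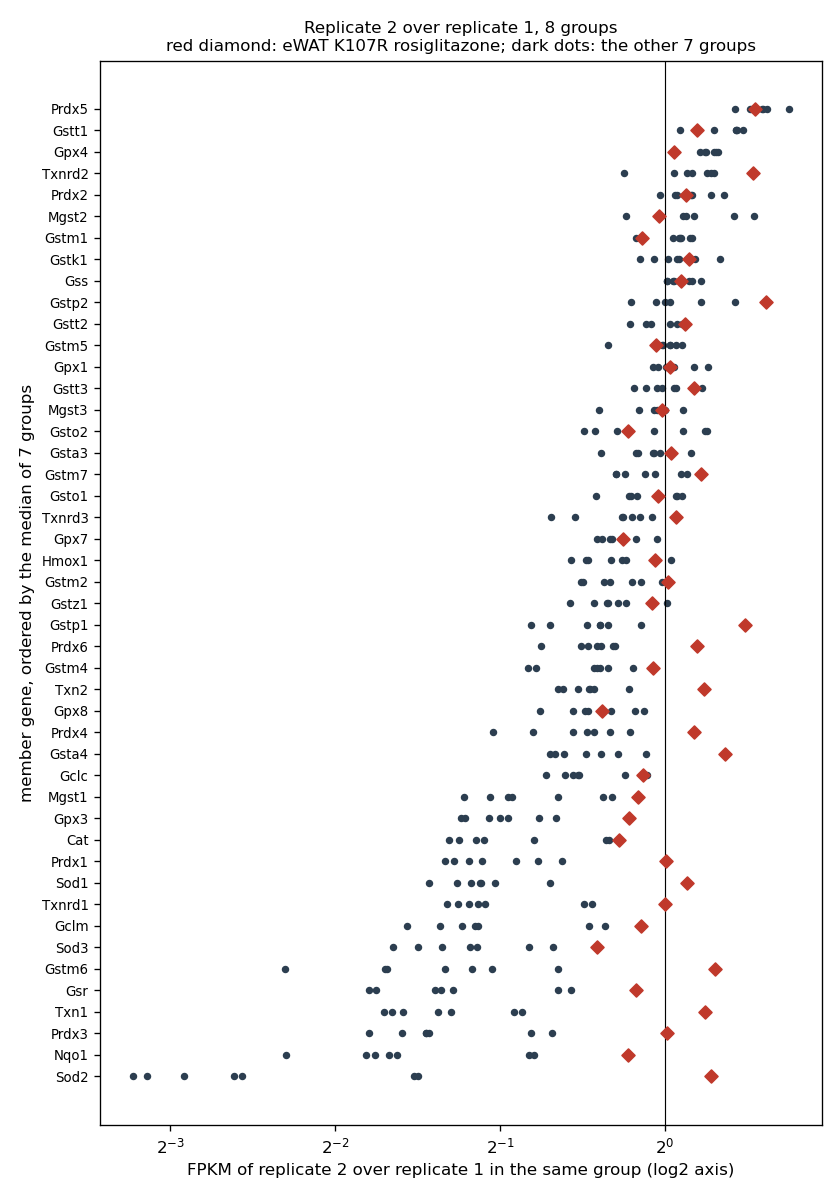
For each of the 46 genes, points are the FPKM of the number 2 library over that of the number 1 library of the same group, on a log2 axis, with dark dots for 7 groups and a red diamond for eWAT K107R rosiglitazone. The dots run from 0.107 for Sod2 to above 1 for Prdx5, and the diamonds of Sod2, Nqo1 and Prdx3 stand to the right of their dots.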

How the data were processed

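Libraries of 75 nt reads were made from 4 ug of RNA per sample with a stranded mRNA kit, per the labels' protocols. CASAVA 1.8.2, TopHat2 2.0.12 and Cufflinks 2.2.1 and the build mm10 are named, per the submitters' processing notes. The deposited table holds 1 FPKM value per gene and library, as the authors made them with that software. The annotation, the strand setting and any scaling between libraries are not given in the sources used here. FPKM carries no counts, so depth is unknown and no counting interval can be given. Reads shared between near-identical genes (Gstm, Gsta, Gstt, and Gstp1 with Gstp2) make those values uncertain.

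Genes with at least 1 FPKM in 2 of 16 libraries (13669 of 14023) were tested with limma 3.58.1 in R 4.3.3, on log2(FPKM + 1) with 1 mean per group, a trended prior and 13 contrasts, and p-values were adjusted by Benjamini-Hochberg within each contrast. The script was tested on simulated data. Other work used Python 3.11.15 with pandas 2.3.3. Same-numbered libraries deviated together from their group means in 28 of 28 pairs of groups (r 0.121 to 0.791, median 0.573). Pairs with eWAT K107R rosiglitazone had r of only 0.121 to 0.281, and the other pairs 0.501 or more. A fit with the replicate number as a term is given where it changes a call. It takes the same shift in every group, which eWAT K107R rosiglitazone shared only weakly. The pairing comes from these deviations, as the labels do not state what a number is. Further alternatives were a pseudocount of 0.1, no filter, libraries rescaled to a common median ratio, the libraries of 1 depot alone, leaving out each library, and leaving out both eWAT K107R vehicle libraries.

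Any member could be named, with full statistics for those past a test and for the 2 most abundant of each family. Of other lists, up to 4 genes past the test per list and contrast were named, by smallest p. For the 5 members with the most calls, the 3 genes with the highest correlation were named. The members, lists and alternatives were chosen with earlier results of these data known. Positions are from GENCODE M21 on GRCm38 (mm10), by symbol.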

Additional observations from a re-analysis of the deposited data

Results flagged for a closer look

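Gstm7 differed between genotypes in its response to rosiglitazone in eWAT, with an interaction of -4.75 on the log2(FPKM + 1) scale (SE 0.22, limma, adjusted p 2.37e-07). It went from 3.3 and 3.16 to 2.63 and 2.14 FPKM in WT and from 111 and 93.9 to 1.91 and 2.21 FPKM in K107R. The 2 K107R vehicle libraries hold epididymis transcripts at 4920 and 4460 FPKM, and the part of those transcripts in the interaction was not tested.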

How the results depend on the processing

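Counts are of the 46 genes past the test, with the reported count in brackets. In the fit with the replicate number as a block, paired by number, the counts were 1 (0), 14 (7), 13 (7), 6 (3), 4 (1) and 4 (1) in eWAT for rosiglitazone in WT, in K107R and over both, K107R against WT with vehicle and with rosiglitazone, and the interaction. In iWAT they were 4 (2), 12 (2), 18 (5), 2 (1), 6 (2) and 0 (0) in that order, and 32 (21) between depots. The block kept all 52 single calls, and it changed no other call of these genes than those given above. Rescaling to a common median ratio gave 4 in eWAT K107R, 3 over both eWAT genotypes, 0 for K107R against WT under rosiglitazone and 2 for the interaction in eWAT, and 0, 0 and 2 in iWAT WT, iWAT K107R and iWAT vehicle. Of all genes it moved the split of higher against lower calls from 2720 and 1714 to 2694 and 2734 between depots, from 425 and 308 to 447 and 544 for rosiglitazone over both iWAT genotypes, and from 123 and 106 to 136 and 179 in iWAT WT. With each depot fitted alone, 0 passed for eWAT K107R against WT under rosiglitazone, and in iWAT 0, 0, 1, 0 and 1 for WT, K107R, both, vehicle and rosiglitazone. Without both eWAT K107R vehicle libraries 4 passed for iWAT K107R against WT under rosiglitazone. Leaving out 1 library gave 0 to 0, 3 to 4, 3 to 5, 1 to 2, 0 to 0 and 1 to 1 in eWAT and 0 to 0, 1 to 2, 2 to 4, 1 to 1, 1 to 1 and 0 to 0 in iWAT, in the order above, and 19 to 22 between depots. A pseudocount of 0.1 or no filter kept every count within 1.5 times. None of the 52 single calls reversed, and 139 of their refits no longer passed, 99 on leaving out a library, 21 on rescaling, 14 with a depot alone, 3 without the eWAT K107R vehicle libraries and 2 at the lower pseudocount. The cause was not tested. With 2 libraries a group and no read counts, small differences could not be resolved.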

Other observations

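The genes whose log2(FPKM + 1) over the 16 libraries was most like that of Mgst3 were Gipr (Pearson r 0.978), Sntb1 (0.977) and Pck1 (0.976). Pck1 encodes the enzyme that opens glyceroneogenesis in fat, and Gipr the receptor of the gut hormone GIP. For Gsto1 they were Cmbl (0.920), Trim14 (0.913) and Taldo1 (0.906), and for Gsta3 Traf3ip2 (0.908), Des (0.907) and Lpcat1 (0.901). Gstm7 followed Prom1 (0.996), Glb1l3 (0.995) and Cwh43 (0.995), which rests on the 2 eWAT K107R vehicle libraries, and Gstm5 followed Mal (0.914), Hrasls5 (0.905) and Ap3b2 (0.889). These correlations are descriptions over libraries that share their group and replicate number.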
